A study of Hipposideros armiger with 2 samples.

Results

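Cytosolic ribosomal proteins are the protein parts of the ribosomes that translate nuclear mRNAs in the cytoplasm. They were taken here as assembled genes whose listed protein name is that of a ribosomal protein (RPL, RPS, RPLP0 to RPLP2 or RPSA, with or without a letter suffix) and whose Swiss-Prot description contains the words "ribosomal protein". The rule found 248 of 55378 assembled genes, under 85 of 12783 distinct names. The samples were 2 great Himalayan leaf-nosed bats (Hipposideros armiger) of the CW cave, and both were labelled as WT liver with heavy metals exposure. The design text describes adult males, and the labels repeat age and sex for replicate 2 only. They form 1 group, with no unexposed library among those analysed, so exposure, cave and animal cannot be told apart here. RNA was poly(A)-selected and sequenced, and the libraries held 18741214 and 18778280 rounded counts over all assembled genes.

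A cytosolic ribosome has a small subunit, which reads the mRNA, and a large subunit, which joins the amino acids. Each protein is needed in about equal number, apart from the stalk proteins RPLP1 and RPLP2, which are present in several copies. Their mRNAs are among the most abundant of most tissues and begin with a tract of pyrimidines, the 5′ TOP, through which growth signals passed on by the kinase mTOR and the RNA-binding protein LARP1 set how well they are translated. A liver makes large amounts of plasma protein and holds many ribosomes.

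The tissue label was set beside marker genes of 3 cell types. All 8 hepatocyte markers were found, with summed levels of 11281 TPM in replicate 1 and 365 TPM in replicate 2, where TPM is the length-corrected share of a transcript among all transcripts of a library, scaled to a fixed total. All 6 lung epithelium markers were found, with summed levels of 11755 and 18715 TPM. Erythroid markers summed to 29881 and 36304 TPM, with SLC4A1 not found. The libraries therefore differed widely in hepatocyte transcripts. The lung epithelium sum was above the hepatocyte sum in both, but narrowly in replicate 1. SCGB3A1 alone held 8069 and 12898 TPM of the lung epithelium sums, and ALB 7990 and 176 TPM of the hepatocyte sums. SCGB1A1 of the lung epithelium list had only 1 and 24 counts. The lists differ in size, so these sums do not compare amounts of the cell types. In such bulk RNA, fewer cells of a type and less RNA per cell cannot be told apart.

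All ribosomal protein names together reached 44974 TPM in the first library and 55299 TPM in the second. That was 4.51% and 5.55% of all TPM. By counts the share was smaller, at 2.10% of replicate 1 (Wilson 95% interval 2.09% to 2.11%) and 2.39% of replicate 2 (2.39% to 2.40%), an interval that covers counting error only. TPM divides by transcript length and counts do not. Mitochondrially encoded transcripts, which share the same total, made up 24.2% of the first total and 15.2% of the second.

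The assembly covered nearly the whole ribosome. Of a fixed list of 80 human ribosomal proteins, 47 of the large and 33 of the small subunit, 79 were found with at least 3 counts in a library. RACK1, a scaffold on the small subunit, was listed under its older symbol GNB2L1, a reading made after its values were seen. RPL41, a very short protein of the large subunit, was the only one with no assembled gene of its name. The naming rule itself held 45 large and 31 small subunit names of that list. It also held 7 paralogs and 2 names, RPL15A and RPS4, whose best matches were Arabidopsis and tick proteins. RACK1 and FAU of the fixed list carry no RPL or RPS symbol and lie outside the rule.

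Most members lay within a narrow band of levels. Of the 76 canonical names, 71 were between 100 and 2000 TPM in both libraries. The median canonical name was at 526 and 619 TPM in replicates 1 and 2, and the 10th and 90th percentiles were 285 and 977 TPM in replicate 1 and 297 and 1259 TPM in replicate 2. Small subunit names had medians of 536 and 634 TPM and large subunit names medians of 492 and 575 TPM, a ratio of large over small of 0.92 and 0.91. The order of the names was much the same in both libraries, with a Spearman rho of 0.967 and a Pearson r of 0.989 on log2 TPM across 76 names that share the libraries and the assembly. Of the 75 neighbouring pairs in the order by mean TPM, 9 had a gap larger than the larger SD of the pair, all of them among the highest 3 or the lowest names. The positions in between are not separated by these 2 libraries.

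**Figure D1:**
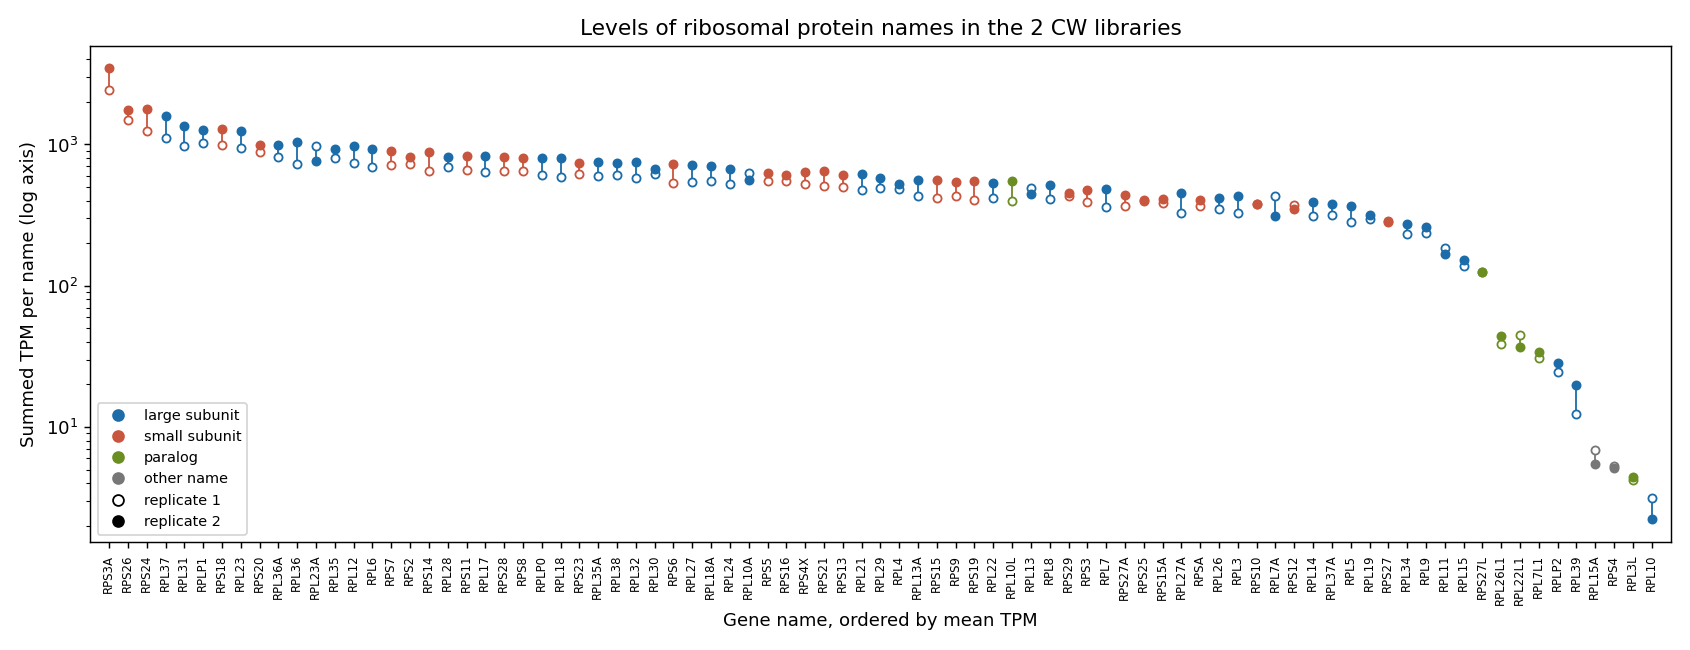
Summed TPM of the ribosomal protein names reported here on a log axis, ordered by mean TPM, with replicate 1 as open and replicate 2 as filled circles and colour for the class of the name; RPS4Y1, listed at 0, is left out. Canonical names run from RPS3A at 2413 and 3450 TPM in a shallow slope to RPL15 at 139 and 151 TPM, below which lie most paralogs and RPLP2, RPL39 and RPL10.

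At the top of the order stood small subunit names. RPS3A, which lies near the exit of the mRNA channel, was at 2413 and 3450 TPM in replicates 1 and 2, or 2932 ± 734 TPM (SD, n = 2). RPS26, which contacts the mRNA upstream of the codon being read, was at 1478 and 1753 TPM, or 1615 ± 194 TPM (SD, n = 2), and RPS24 at 1253 and 1771 TPM. All 3 were above every large subunit name when both libraries were averaged.

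The highest large subunit names were RPL37 at 1113 and 1600 TPM and RPL31, at the rim of the exit tunnel for the growing protein, at 976 and 1356 TPM. The stalk protein RPLP1 came next, at 1028 and 1264 TPM, and RPL23 after it at 949 and 1255 TPM. RPS18 of the head of the small subunit was at 996 and 1277 TPM and RPS20 at 881 and 994 TPM. Replicate 2 had the higher TPM in each of these.

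The stalk of the large subunit, which calls in the elongation factors, is built on RPLP0 with dimers of RPLP1 and RPLP2. RPLP1 was at 1028 and 1264 TPM from 1 assembled gene with 5719 and 6186 counts. RPLP0, its base, was at 604 and 798 TPM over 5 assembled genes. RPLP2 was far lower, at 24.4 and 28.4 TPM from 56 and 60 counts over 3 assembled genes. Every assembled gene with the KEGG description of RPLP2 carried this name. An assembled gene without that description would be missed by this search, and 30192 assembled genes had no name, so a further RPLP2 source is not excluded.

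At the low end, RPL15 was at 139 and 151 TPM and RPL11 at 185 and 168 TPM. RPL11 binds the smallest ribosomal RNA together with RPL5 and holds back MDM2, the ligase that degrades p53. RPL5 was at 281 and 368 TPM. RPL9 was at 237 and 258 TPM, RPL34 at 232 and 275 TPM and RPS27, a zinc-binding protein of the small subunit, at 289 and 282 TPM. The counts behind these names were not few: RPL15 had 4403 and 5131 and RPL11 4111 and 4785, on main assembled genes of 2065 and 1934 bases. Across the 76 names, mean TPM had a Spearman rho of -0.359 with the length of the main assembled gene, against a Pearson r of 0.02 on log2 scales, and one of only 0.245 with the summed counts.

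RPL39 and RPL10 were the lowest canonical names. RPL39, a very small protein that lines the exit tunnel, was at 12.3 and 19.7 TPM, from 29 and 42 counts. An assembled gene with no name in the same Trinity cluster, of 848 bases, was at 1069 and 1406 TPM from 3992 and 4631 counts. Its identity is not given by the tables and it was not counted as RPL39. RPL10, which is added last to the large subunit and lets the subunits join, was at 3.14 and 2.22 TPM from 16 and 10 counts.

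RPL10L, a copy of RPL10 that mammals use in the testis, was in turn at 396 and 553 TPM from 5330 and 6447 counts, the level of an ordinary canonical member. The RefSeq gene table of this bat (assembly ASM189008v1) has the symbol RPL10 and holds no symbol RPL10L. The names come from the best Swiss-Prot match, which was the bovine RPL10L for all 3 assembled genes. RPL10 and RPL10L are near-identical proteins, so the split between these names is uncertain.

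The other paralogs were low. RPS27L, a p53-responsive copy of RPS27, was at 126 and 124 TPM, against 289 and 282 TPM for RPS27. RPL22L1 was at 44.5 and 36.6 TPM beside RPL22 at 419 and 535 TPM, and RPL26L1 at 38.6 and 44.2 TPM beside RPL26 at 347 and 416 TPM. RPL7L1, which acts in building the large subunit, was at 30.9 and 33.9 TPM, and RPL7 at 363 and 482 TPM. RPL3L, which replaces RPL3 in heart and skeletal muscle, was at 4.22 and 4.42 TPM from 65 and 53 counts, and RPL3 at 329 and 433 TPM. Both assembled genes named RPS4Y1, a copy known from the primate Y chromosome, were listed at 0 in both libraries; 0 counts allow up to 3 counts in a library of this depth. RPL39L, RPL36AL, RPS4Y2 and RPS4L had no assembled gene of their name.

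One name often stood for several assembled genes. Of the 85 names, 23 had 1 assembled gene and 62 had several, up to 11 for RPS4X, with a median of 3. In most of them a single assembled gene dominated: it held over 95% of the counts of the name in 53 of the 62. The main assembled genes together held 97.4% of member counts in replicate 1 and 98.0% in replicate 2, but only 88.5% and 90.5% of member TPM. Their median length was 872 bases, against 473 bases for all 248 assembled genes, and TPM gives a short fragment more weight per count.

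The 8 names with the most assembled genes were RPS4X with 11 and RPL4, RPL3, RPL23A, RPL21, RPSA, RPS2 and RPL17 with 6 or 7. All 11 of RPS4X had the green monkey as best-match species. Its main assembled gene had 5811 and 6806 counts, the next 264 and 151, and 1 was at 0 in both libraries. RPL4 had 7, of which 4 matched cattle and 1 each mouse, dog and the spoon worm Urechis caupo. RPL21 had 7 with matches to human, mouse, goat and chinchilla, with 7149 and 8432 counts in the main one and 77 or fewer in each of the others. RPL3 had 7 that matched human, cattle, mouse and Drosophila, with 7361 and 8526 counts in the main one and 127 or fewer in each of the others. RPL23A had 7 with cattle matches only, of which the main one had 7843 and 10301 counts, the next 474 and 7 and each of the others 65 or fewer. RPSA, also known as a laminin receptor, had 7 that matched cattle, human and Chinese hamster, with 5406 and 5319 counts in the main one. RPS2 had 6, with 10979 and 10674 counts in the main one (mouse match), 203 and 220 in a second mouse match of the same length, and 49 and 39 in a Drosophila match. RPL17 had 6 that matched cattle, mouse, cat and the tick Argas monolakensis, with 5802 and 6662 counts in the main one. In these 8 names the main assembled gene thus stood far above the rest in both libraries.

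Single short fragments decided some positions in the order. RPS3A owed its first place to an assembled gene of 273 bases at 1869 and 2745 TPM, which had 1586 and 2016 counts. The main RPS3A gene of 851 bases had 7582 and 8881 counts and 536 and 699 TPM, and by this one alone RPS3A stood at place 29. RPL28 had 341 and 343 TPM in its main gene and 334 and 457 TPM in a fragment of 308 bases with 713 and 863 counts. By main genes alone RPS26 was first.

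**Figure D2:**
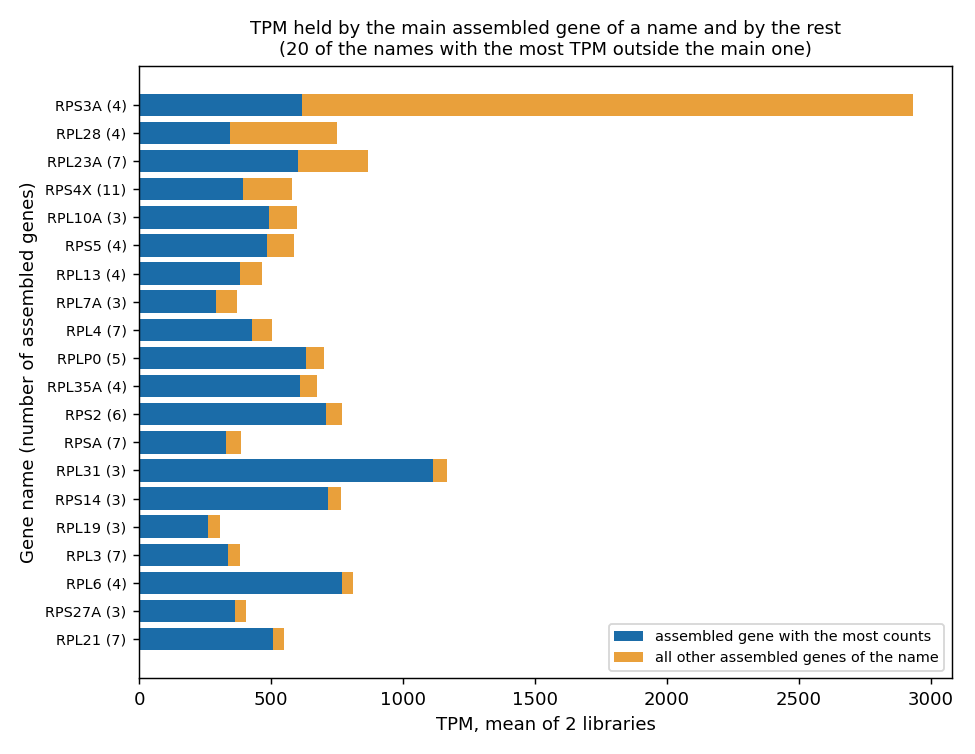
Mean TPM of the 2 libraries held by the assembled gene with the most counts (blue) and by all others of the same name (orange), for 20 of the names with the most TPM outside the main gene; the number of assembled genes is in brackets. RPS3A has 617 TPM in its main gene out of 2932 TPM, whereas for RPL6 the main gene holds 769 of 810 TPM.

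The members were then compared between the libraries. For each name, rounded counts were summed, scaled by library size and TMM factors to CPM, the share of a name in all counts on a fixed total, and CPM + 1 of replicate 2 was divided by that of replicate 1, on the log2 scale, for names with a mean of at least 1 CPM, with the median of all names subtracted. With 1 library against 1 library there is no test, and a difference over 2-fold is called. Of the 85 names, 82 passed the filter.

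Ribosomal protein names kept close together. None of the 82 was over 2-fold lower or higher in replicate 2, whereas among all 11289 names 5.16% passed this fold downwards and 0.0266% upwards. With library sizes alone and no centring, again none of the members passed it, against 4.39% of all names downwards and 0.0797% upwards. Their median log2 ratio was -0.07 and 81 of the 82 lay within 0.5 of 0. The quartiles were -0.15 and -0.02, against -0.17 and 0.13 for all names, and the SD was 0.12 against 0.68. Of the members, 78 had a mean of at least 10 CPM, whereas all names were taken from 1 CPM upwards, where counting error is larger. A spread for names of like level was not computed, so the narrow spread is not shown to be particular to these names. Large subunit names had a median of -0.05 (44 names) and small subunit names one of -0.08 (31 names). On the same scale the 8 hepatocyte markers had a median of -4.66, each past 2-fold, and the 5 tested lung epithelium markers had a median of 0.21. The part of such differences in tissue composition in the ribosomal protein values was not tested.

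For many names the difference from the median of all names was larger than counting error. The exact 95% counting interval of the ratio, relative to that median, lay wholly below 0 for 44 names and wholly above 0 for 4. This split depends on the centring: with library sizes alone and the median kept, it lay below 0 for 2 names and above 0 for 66. The members' median was then 0.19 and that of all names 0.24. The share of all names whose interval excludes 0 was not computed for either scaling. Such intervals narrow as counts rise, so these numbers of names are not shown to be particular to ribosomal proteins. Uncentred counts were higher in replicate 2 for 75 of the 85 names and lower for 9. The lowest ratio was that of the paralog RPL22L1, with 327 and 255 counts and a log2 ratio of -0.58 (counting interval -0.86 to -0.38). RPL3L at -0.42 and RPS4 at -0.38 followed, both on few counts. RPS27, with 2536 and 2400 counts, was at -0.34, and RPS2, with 11395 and 11136 counts, at -0.29. The highest were RPL39 at 0.18 on 29 and 42 counts, RPL35A at 0.10, RPL37 at 0.09, RPL36 at 0.08 and RPS24 at 0.07. RPS24 had 7237 and 9105 counts. These intervals cover counting error only, and the spread between animals is unknown.

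In TPM, 70 names were higher and 14 lower in replicate 2, and 1 was equal. The median TPM ratio of replicate 2 over replicate 1 was 1.23 for the tested members and 1.30 for all tested names. For 9 names the counts were higher and the TPM lower in replicate 2. RPL23A, which docks factors at the exit tunnel, had the largest difference in TPM among them, with 978 and 758 TPM but 8470 and 10445 counts. The lowest TPM ratio among them was that of RPL7A, at 0.73, against 0.78 for RPL23A. RPL7A had 429 and 313 TPM with 5944 and 6227 counts, RPL10A 633 and 559 TPM with 4850 and 5194 counts, and RPL13 489 and 443 TPM with 5018 and 5382 counts. RPS25, RPS10, RPS12, RPL11 and RPS27L completed the list.

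**Figure D3:**
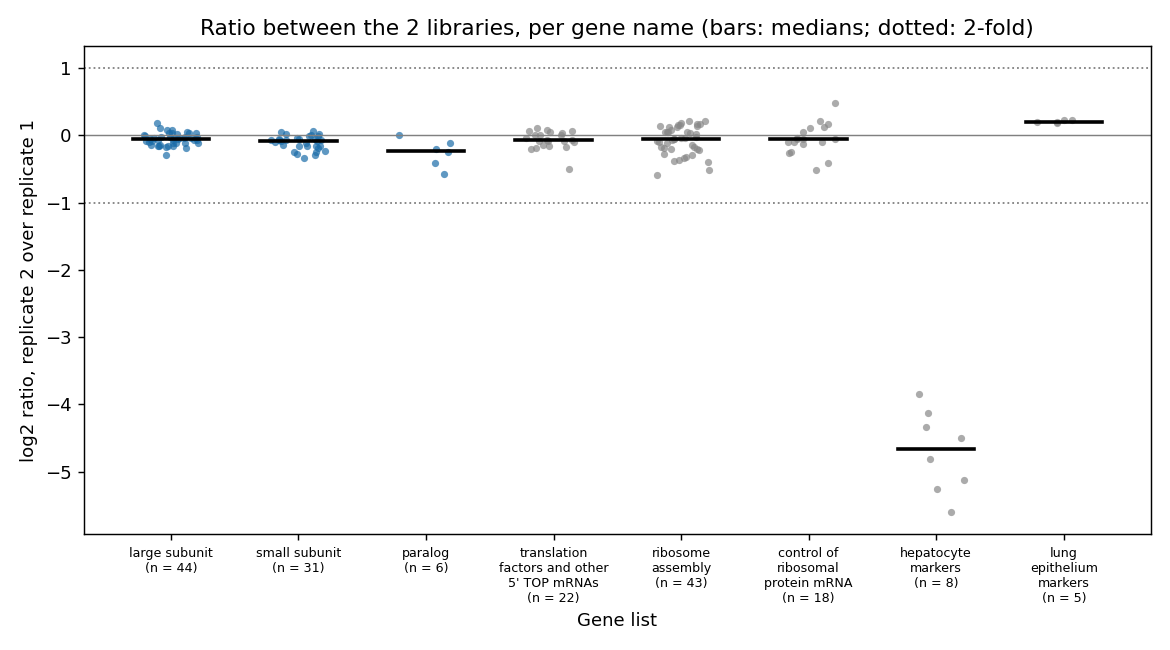
Log2 ratio of replicate 2 over replicate 1 for each tested gene name, by list; bars mark medians and dotted lines 2-fold. Large (median -0.05) and small subunit names (-0.08) and the lists of related genes lie near 0, whereas the 8 hepatocyte markers lie between -5.60 and -3.84.

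Below the level of names, 167 of the 248 assembled genes passed the filter and 10 were over 2-fold lower in replicate 2. That is 5.99%, against 6.81% of all 22025 assembled genes tested, a share near the background. None was over 2-fold higher, where 0.0999% of all were. On this CPM + 1 scale 1 (RPL23A) was over 16-fold lower, where 0.772% of all were. With a pseudocount of 0.1 CPM 16 members were over 2-fold lower and 1 higher, beside 7.86% of all assembled genes lower and 0.831% higher. At a mean of at least 10 CPM 3 of 87 were lower and 0 higher, beside 4.6% lower and 0.0432% higher. These 10 belonged to 10 different names. In all 10 the other assembled genes of the name together had more uncentred counts in replicate 2 than in replicate 1. That direction was common, since 75 of the 85 names had more uncentred counts in replicate 2. On the centred scale the main genes of these 10 names had log2 ratios from -0.17 (RPL7A) to 0.16 (RPL35A), most of them below 0.

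Of these 10 assembled genes, 6 were almost confined to replicate 1. They were fragments of 210 to 332 bases. The RPL23A fragment of 241 bases, with a bovine match, had 474 and 7 counts and 422 and 7.00 TPM. The RPL35A fragment, with a human match, had 218 counts and 1 count, and the RPL13 fragment, with a mouse match, 163 counts and 0. With the floor of 3 counts in place of 0, scaled counts of the RPL13 fragment without a pseudocount were 65.6-fold lower in replicate 2. The exact counting interval for 163 counts against 0 had a lower limit of 52.8-fold. On the centred CPM + 1 scale the RPL13 fragment was 10.5-fold lower. The RPL10A fragment had 206 and 6 counts, the RPL4 fragment, with a dog match, 164 and 3, and the RPL7A fragment 106 and 3. Between 1.53% (RPL4) and 5.60% (RPL23A) of the counts of their names in replicate 1 came from them.

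The remaining 4 were nearer to 2-fold. RPL6 had an assembled gene of 898 bases at 133 and 35 counts, RPS9 one of 1155 bases at 292 and 107 counts, RPS27A one of 521 bases at 313 and 134 counts, and RPL19 one of 347 bases at 137 and 60 counts. All 10 together held 2206 counts in replicate 1 and 356 in replicate 2, or 0.560% (Wilson 95% interval 0.537% to 0.584%) and 0.0792% (0.0714% to 0.0878%) of member counts. The hepatocyte markers went the same way, and a link between the 2 was not tested. The names RPL23A, RPL10A, RPL13 and RPL7A, with higher counts but lower TPM in replicate 2, were each among these 10. Without the fragment, RPL23A was at 556 and 751 TPM, RPL10A at 435 and 552 TPM, RPL13 at 356 and 443 TPM and RPL7A at 283 and 309 TPM, so all 4 were then higher in replicate 2.

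**Figure D4:**
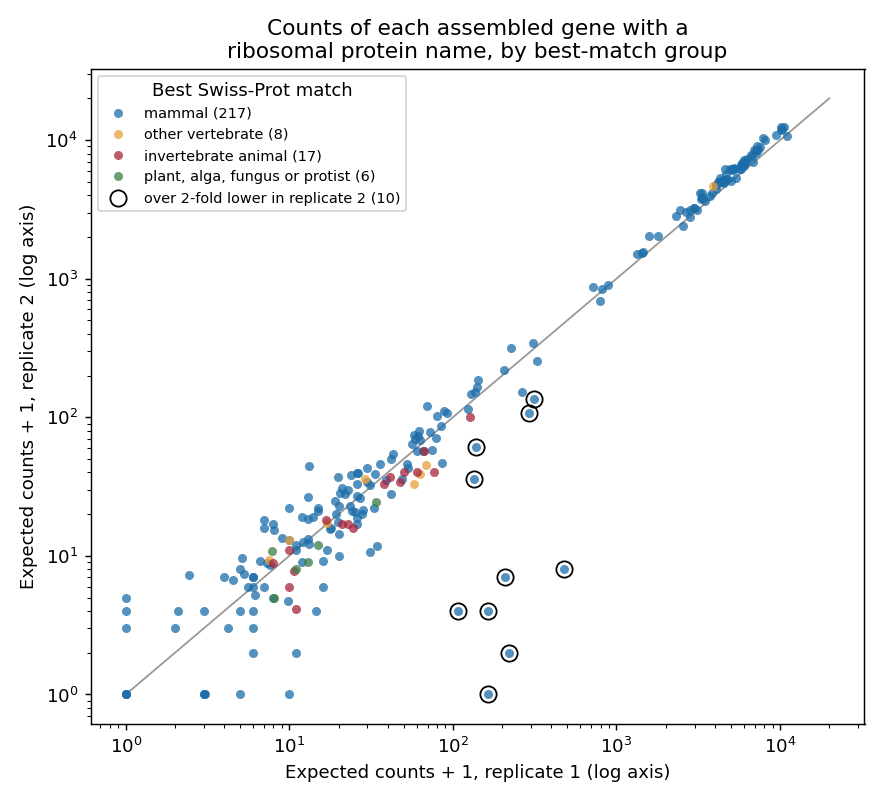
Expected counts + 1 of each of the 248 assembled genes in replicate 1 (x) and replicate 2 (y), both on log axes, with colour for the group of the best-match species, a grey line of equal counts and rings on the 10 that were over 2-fold lower in replicate 2. Most main genes lie along the line at the upper right, the ringed assembled genes drop below it between 106 and 474 counts of replicate 1, and matches outside the vertebrates stay at 127 counts or fewer.

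Best-match species were mostly mammals, with 217 of the 248 assembled genes, led by cattle (134), human (29) and mouse (19). Other vertebrates had 8, invertebrate animals 17, and plants, algae, fungi or protists 6. The best match names the nearest database protein, not the source of the transcript. The 23 matches outside the vertebrates were low and even. Their TPM ranged from 3.62 to 16.2 in replicate 1 (median 5.69) and from 3.03 to 14.3 in replicate 2 (median 4.70), and they held 710 and 535 counts, or 0.180% and 0.119% of member counts.

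These 23 spread over 22 names and included Drosophila RPL3 with 127 and 100 counts, Urechis RPL4 with 76 and 39, Ixodes RPS4 with 66 and 56, and Drosophila RPLP0 with 59 and 39. Counts were lower in replicate 2 for 19 of the 23 and higher for 4. The 11 that passed the filter had log2 ratios between -0.91 and -0.28, with a median of -0.44, all below 0. Main genes of the member names had a median of -0.08, and the 75 tested vertebrate matches that were not main genes one of -0.14. Outside the naming rule, another 10 assembled genes with a ribosomal protein description, among them matches to Caenorhabditis, Schistosoma and Mycoplasma, held 292 and 239 counts.

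The ubiquitin fusion genes make a ribosomal protein and ubiquitin or a ubiquitin-like protein as 1 chain. RPS27A was at 369 and 437 TPM and FAU, which encodes RPS30, at 651 and 765 TPM, with log2 ratios of -0.16 and -0.20. UBB, which makes ubiquitin alone, was at 3439 and 3697 TPM.

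Genes that work with ribosomal proteins, in lists chosen with earlier results known, also had medians close to 0, where the median of all names was set. Of 22 translation factors and other mRNAs known to carry a 5′ TOP, all were tested, with a median of -0.07. None was over 2-fold lower or higher, beside 5.16% lower and 0.0266% higher among all 11289 names. At that share few calls are due in a list of this size, so 0 is not shown to be particular to these genes. EEF1A1, which brings aminoacyl-tRNA to the ribosome, was at 1485 and 1860 TPM, TPT1 at 912 and 1081 TPM, and EEF2, which moves the ribosome along the mRNA, at 713 and 806 TPM. EEF1A2, the muscle and neuron form, had the lowest ratio of this list, with 239 and 196 counts and -0.50.

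Of 43 ribosome assembly genes, all were tested, with a median of -0.05. None was over 2-fold apart, beside 5.16% lower and 0.0266% higher among all names, a share at which few calls are due here too. Their levels were far below those of the ribosomal proteins, with a median member at 14.0 TPM. NOP10, of the particle that makes pseudouridine, was at 151 and 180 TPM, the nucleolar protein NCL at 65.5 and 93.7 TPM and EIF6, which keeps the subunits apart, at 53.6 and 70.9 TPM. SBDS, which helps to release EIF6, had 709 and 557 counts and the lowest ratio, -0.59.

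Of 18 genes that control ribosomal protein mRNAs, all were tested, with a median of -0.06. None was over 2-fold apart, beside the same 5.16% lower and 0.0266% higher among all names, so few calls were due. CNBP, which binds pyrimidine-tract mRNAs, was at 204 and 256 TPM, TSC2, which holds mTOR back, at 39.3 and 46.2 TPM, and EIF4EBP1, a target of mTOR, at 28.3 and 34.2 TPM. MTOR itself was at 15.9 and 23.6 TPM and LARP1 at 5.34 and 4.83 TPM. The widest ratios were those of AKT1 (-0.51, 29 and 18 counts) and TSC1 (0.49, 19 and 40 counts), both on few counts.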

How the data were processed

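Poly(A)-selected RNA of 2 samples of 1 group was analysed. Each deposited table lists 55378 assembled genes with a length, annotation, 1 abundance and 1 expected count. The expected counts (estimated counts) were deposited by the authors and were rounded here. The abundance is read as TPM, which the authors deposited without a unit, since the columns sum to 996837 and 996239. Per the submitters' processing notes, cutadapt 1.9 was used and mm10 is named for replicate 1. For assembler, aligner, quantifier and strand the sources used here give nothing, and reads shared by near-identical copies may be split between names.

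Names were compared in upper case, and 30192 assembled genes without a name entered no name. Libraries held 18741214 and 18778280 rounded counts. Counts were summed by name and scaled with edgeR 4.0.16 TMM factors (0.9096 and 1.099; R 4.3.3). Names or assembled genes whose mean reached 1 CPM were kept, a pseudocount of 1 CPM was added and the median log2 ratio was removed. With 1 library a side no test was fitted, and over 2-fold was called. Shares have Wilson 95% intervals, count ratios exact Clopper-Pearson 95% intervals, and the floor is 3 counts. Levels, intervals and plots were made in Python 3.11.15 with pandas 2.3.3, matplotlib 3.10.9, scipy 1.17.1 and numpy 2.4.6. The ratio step was tested on simulated data. Of the 85 names, 69 are symbols of the RefSeq table of ASM189008v1.

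The members and lists were chosen with earlier results of these data known. Named genes are the 10 highest and 8 lowest canonical names, the 5 highest and 5 lowest ratios, the 8 names with the most assembled genes, paralogs, stalk proteins, canonical names not found, names over 2-fold apart, and in each related list the 3 highest and any over 2-fold apart. Other genes named, and the reading of GNB2L1 as RACK1, were chosen after their values were seen. Alternatives covered scaling, including DESeq2 1.42.0 size factors, pseudocount, filter, members and leaving out each library. The other cave was not analysed here, and some genes that meet the naming rule are not reported here.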

Additional observations from a re-analysis of the deposited data

How the results depend on the processing

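No paired analysis was possible because both libraries belong to 1 group. The main limit is that 1 library stands against 1, so spread between animals is unknown; names rest on best matches and split assembled genes. Of 52 alternatives, 38 stayed within tolerance. The count of names over 2-fold apart was 0, and 1 with the canonical list of 77 tested names. The median ratio of -0.07 was -0.0509 with library size scaling, -0.0794 at a mean of at least 10 CPM and -0.034 with TPM + 1. With library size scaling and the median of all names kept, an alternative chosen after seeing the data, it turned to 0.1871, still below the 0.24 of all names, of which 4.39% were then over 2-fold lower and 0.0797% higher. Assembled genes over 2-fold apart numbered 17 with a pseudocount of 0.1 CPM (background 7.86% lower, 0.831% higher) and 3 of 87 at 10 CPM (RPL23A, RPS27A and RPS9; background 4.6% lower). The mean TPM share of 5.03% was 6.81% without the 10 highest assembled genes, 6.25% without mitochondrially encoded ones and 2.25% by expected counts, and 4.51 to 5.55% leaving out either library. The SD of log2 levels among canonical names, 1.35, was 0.749 for names of at least 100 TPM (added after seeing the data) and 1.31 to 1.38 leaving out either library. The large over small ratio of 0.912 was 0.880 by main genes alone and 0.906 to 0.918 leaving out either library.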
